A study of Danio rerio with 12 samples.

Results

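The genes described here are 8 zebrafish genes of the circadian clock and its light response: the period genes per1a, per1b, per2 and per3, the activator clocka, the nuclear receptor nr1d1, the D-box factor dbpb, and cry5. They were chosen by name, with earlier results of these data known. Every array probe whose RefSeq identifier belongs to any of them was read, giving 14 probes for 8 of the 14016 genes named on the array. Each gene had 2 probes except clocka and dbpb, with 1 each. A filter for signal above background, explained below, kept 11 of the probes and 7 of the genes, and left out clocka.

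The study used whole embryos of the wild-type AB strain injected into the yolk at the 1 to 4 cell stage, and read RNA from pools of 18 to 35 embryos on 12 one-colour Agilent arrays. RNA was taken at 6 h and at 24 h after fertilization. Embryos received either a control morpholino or morpholinos against PCSK7 and p53 together, and each of the 4 combinations of morpholino and time had 3 arrays. A morpholino is an antisense oligonucleotide that blocks translation or splicing of its target transcript, so the protein can be lost with the transcript still present. PCSK7 is a proprotein convertase, an enzyme that cuts precursor proteins into their active forms. No embryos received either of these morpholinos alone, so their effects cannot be told apart. No probe was named for pcsk7, and the knockdown was therefore not checked on these arrays. The clock time of collection and the lighting of the embryos are not given in the sources used here, so a change between the times is a change with age and, if the clock time differed, with the time of day as well.

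In the vertebrate clock, CLOCK and BMAL proteins switch on the period and cryptochrome genes through E-box sequences, and the period and cryptochrome proteins then block CLOCK and BMAL. REV-ERB receptors, such as the product of nr1d1, repress the bmal genes, and PAR bZIP factors such as DBP and TEF act on D-box sequences. Zebrafish cells hold clocks that light can set directly, and per2, cry1a and cry5 are known as genes that light induces in zebrafish. Despite its name, cry5 encodes a 6-4 photolyase, which repairs ultraviolet damage in DNA with the energy of light.

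Levels are log2 of the processed signal minus the 75th percentile of the same array, so a level of 0 is that percentile and a difference of 1 is a factor of 2 in signal. A probe has a level of its own kind, and levels are compared between arrays and not between probes. A probe was tested if the scanner software flagged it as well above background throughout at least 1 group, meaning on its 3 arrays. Tests are limma's moderated test over 36686 probes with Benjamini-Hochberg adjustment, and a change is one with an adjusted p under 0.05. A gene is read by its brightest tested probe, called probe 1 below, and the other probe is given beside it.

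The 75th percentile of signal lay at 403.4 to 512.6 in the control arrays at 6 h, at 633.8 to 730.0 with the PCSK7 and p53 morpholinos at 6 h, at 695.4 to 993.3 in the controls at 24 h and at 1021.6 to 1087.4 with the PCSK7 and p53 morpholinos at 24 h. Replicate arrays correlated at 0.993 to 0.996. Control arrays lay on 3 slides, each with 1 array of each time, and the other arrays on 2 slides, 1 for each time, in another of the 2 scan sessions and with another build of the scanner software. Slide, session and morpholino therefore cannot be told apart, and in the embryos with the PCSK7 and p53 morpholinos slide and time cannot be told apart either. The labels do not tie replicate pools to separate clutches or days, so the spread behind each p-value may be partly technical. In whole embryos, fewer cells with a transcript and less transcript per cell cannot be told apart.

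At 6 h, 5 of the 7 tested clock genes differed between the morpholinos by probe 1. By that probe per1b was higher and per1a, per3, nr1d1 and cry5 were lower with the PCSK7 and p53 morpholinos. Over the whole array 62.9% of 12849 genes changed at 6 h, so a share of this size is close to that of all genes. For nr1d1 no array of either group was above background at 6 h, which leaves 4 of 6 genes with a measured level in at least 1 of the groups, beside 64.9% of all such genes. Probe 2 of per3 passed in the other direction at 6 h (log2 1.93), and probe 2 of per1b did not pass (log2 0.11). Where all tested probes of a gene had to agree, 3 of the 7 clock genes changed at 6 h, beside 5793 of 12849 genes. The arrays of the groups did not overlap for 6 of the 7 genes at 6 h, beside 68.6% of all genes, and for 5 of 7 at 24 h, beside 63.7%. By probe 1, 5 of the 7 genes changed again at 24 h, with per2 higher and per1a, per1b, nr1d1 and cry5 lower, beside 46.8% of all genes. Probe 2 of per2 did not pass at 24 h, and probe 2 of per3 was higher (log2 1.38). With all tested probes of a gene in agreement, 4 of the 7 changed at 24 h, beside 4075 of 12849 genes. These numbers describe genes that moved with much of the transcriptome, and the values of each gene follow.

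**Figure D1:**
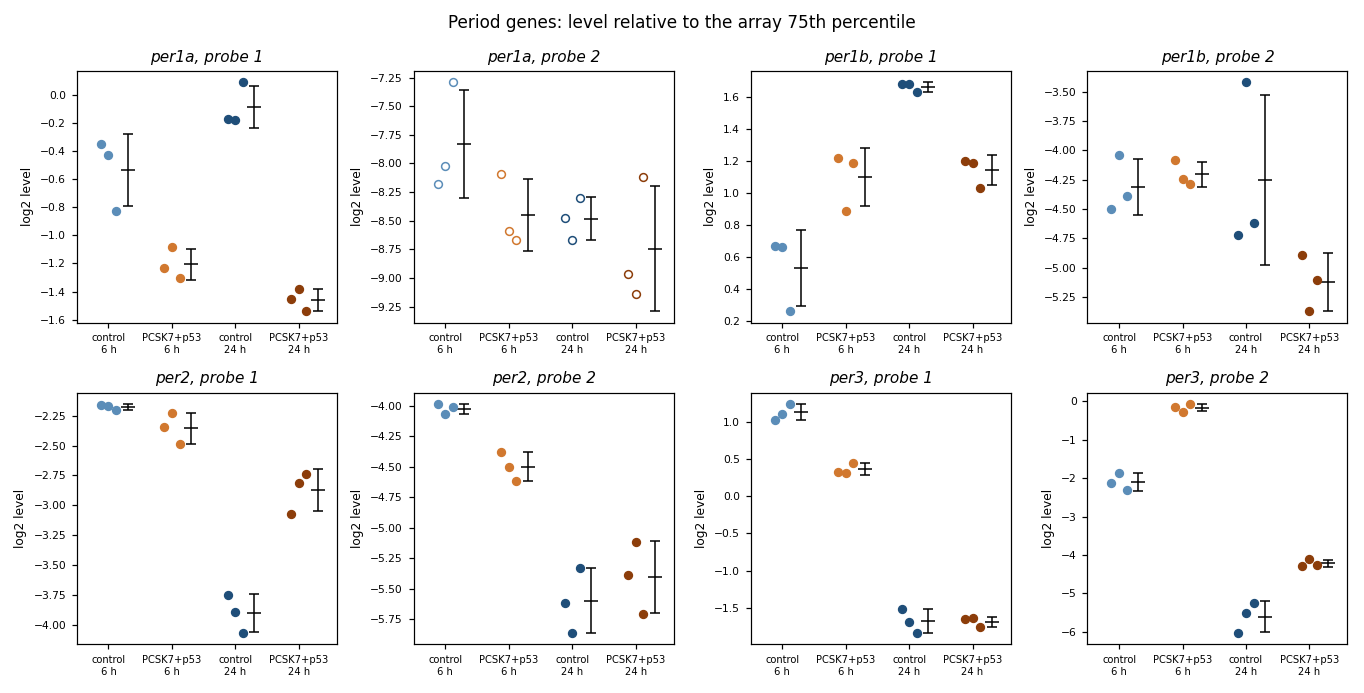
Levels of the period genes on each array, as log2 relative to the array's 75th percentile (vertical axis, a separate range in each panel) in the 4 groups (horizontal axis). Points are arrays, filled where the probe passed the background flag on each array of the group, and the dash with bars is the mean ± SD (n = 3); per1a probe 1 is lowest on the 3 arrays with the PCSK7 and p53 morpholinos at 24 h, from -1.54 to -1.38.

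The period genes encode repressors of the clock. per1a was lower with the PCSK7 and p53 morpholinos at both times. Its probe 1, A_15_P175931, read -0.35, -0.43 and -0.83 in the controls at 6 h and -1.23, -1.08 and -1.30 with the morpholinos. At 24 h it read -0.17, -0.18 and 0.09 in the controls and -1.45, -1.38 and -1.54 with the morpholinos. The groups did not overlap at either time, and the 4 groups stood in the order control at 24 h, control at 6 h, morpholinos at 6 h and morpholinos at 24 h, with no neighbours overlapping.

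per1a fell by 0.67 on the log2 scale at 6 h (SE 0.13, limma adjusted p = 0.00124), and at 24 h it was 2.59-fold lower (log2 -1.37, SE 0.13, limma adjusted p = 3.44e-05). The effect at 24 h minus that at 6 h was -0.70 (SE 0.18, limma adjusted p = 0.00986). Between 6 h and 24 h per1a rose in the controls, by 0.45 (limma adjusted p = 0.00674), but within the 3 control slides the change was 0.17, 0.25 and 0.92, so 1 slide gave a far larger rise than the others. With the slide as a block in the control arrays alone the rise did not pass (limma adjusted p = 0.0747). With the PCSK7 and p53 morpholinos per1a changed by -0.25 from 6 h to 24 h (limma adjusted p = 0.0838). The second per1a probe was well above background on none of the 12 arrays and gives no reading of the gene.

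per1b was higher with the morpholinos at 6 h and lower at 24 h by probe 1. No other of these genes passed the test in opposite directions at the 2 times by its probe 1. Probe 1, A_15_P104502, read 0.67, 0.66 and 0.26 in the controls at 6 h and 1.22, 0.89 and 1.19 with the morpholinos. At 24 h it read 1.68, 1.68 and 1.63 in the controls and 1.20, 1.19 and 1.03 with the morpholinos. Put by group, the controls moved between a low and a high level while the embryos with the PCSK7 and p53 morpholinos lay in between at both times, and their arrays at the 2 times overlapped.

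In numbers, per1b was 1.48-fold higher at 6 h (log2 0.57, SE 0.12, limma adjusted p = 0.0027) and 1.43-fold lower at 24 h (log2 -0.52, SE 0.12, limma adjusted p = 0.00661). The difference of these effects was -1.09 (SE 0.17, limma adjusted p = 0.000723). The controls rose 2.19-fold from 6 h to 24 h (limma adjusted p = 5.47e-06), by 1.01, 1.02 and 1.37 on the 3 slides. In the other embryos the change with time was 0.04, with a 95% interval of -0.23 to 0.32 (limma adjusted p = 0.742).

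Probe 2 of per1b, A_15_P658736, was above background on all arrays and gave another picture at 6 h. It read -4.50, -4.04 and -4.39 in the controls at 6 h and -4.08, -4.24 and -4.29 with the morpholinos, groups that overlapped. Its readings at 24 h were -4.72, -3.42 and -4.62 in the controls and -4.89, -5.37 and -5.10 with the morpholinos. The control array at -3.42 stood well above its fellows. Probe 2 changed by 0.11 at 6 h (SE 0.30, limma adjusted p = 0.771) and fell by 0.87 at 24 h (SE 0.30, limma adjusted p = 0.0361). The lower level at 24 h thus passed by both probes and the higher level at 6 h by probe 1 alone. Whether the probe 2 call at 24 h holds without the control array at -3.42 was not tested. Over the 12 arrays the per1b probes correlated at 0.03.

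per2, the light-induced period gene, fell with age in both kinds of embryo and was higher with the PCSK7 and p53 morpholinos at 24 h by probe 1. That probe, A_15_P102459, read -2.16, -2.17 and -2.20 in the controls at 6 h and -2.34, -2.23 and -2.49 with the morpholinos. The later readings, at 24 h, were -3.75, -3.89 and -4.07 in the controls and -3.07, -2.81 and -2.74 with the morpholinos. All 3 of these last arrays lay above all 3 controls, by more than the spread within either group.

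The probe 1 level of per2 at 24 h was 2.04-fold higher with the morpholinos (log2 1.03, SE 0.11, limma adjusted p = 6.68e-05). At 6 h the change of -0.18 (SE 0.11, 95% interval -0.42 to 0.06) did not pass the test (limma adjusted p = 0.177), and the difference of the effects was 1.21 (SE 0.15, limma adjusted p = 0.000186), the largest of any of these genes that passed. From 6 h to 24 h per2 fell 3.31-fold in the controls (log2 -1.73, limma adjusted p = 4.68e-08) and 1.43-fold with the morpholinos (log2 -0.52, limma adjusted p = 0.000986).

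The second per2 probe, A_15_P456650, did not share the call at 24 h. It read -5.62, -5.86 and -5.33 in the controls and -5.39, -5.12 and -5.71 with the morpholinos, which overlap, and changed by 0.19 (limma adjusted p = 0.352). At 6 h, where it read -3.99, -4.07 and -4.01 against -4.38, -4.50 and -4.62, it fell by 0.47 (SE 0.16, limma adjusted p = 0.0251). Both probes put the effect at 24 h above that at 6 h, probe 2 by 0.67 (limma adjusted p = 0.0327), and both fell with age, and they correlated at 0.83 over the 12 arrays. The size of the per2 change at 24 h thus depends on the probe read.

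per3 fell the most with age among the period genes by probe 1, and its probes disagreed on the morpholinos. Probe 1, A_15_P628251, read 1.03, 1.11 and 1.24 in the controls at 6 h and 0.33, 0.31 and 0.45 with the morpholinos. At 24 h it read -1.51, -1.69 and -1.83 in the controls and -1.65, -1.64 and -1.76 with the morpholinos. The groups stood apart at 6 h and overlapped at 24 h.

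Probe 1 of per3 was 1.70-fold lower at 6 h (log2 -0.77, SE 0.09, limma adjusted p = 6.33e-05), while at 24 h the change was -0.01 with a 95% interval of -0.21 to 0.20 (limma adjusted p = 0.964). The difference of the effects was 0.76 (SE 0.13, limma adjusted p = 0.00104). With age it fell 7.00-fold in the controls (log2 -2.81, limma adjusted p = 1.94e-10) and 4.13-fold with the morpholinos (log2 -2.05, limma adjusted p = 2.71e-09).

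The second per3 probe, A_15_P103364, was higher with the morpholinos at both times, opposite to probe 1 at 6 h. It read -2.12, -1.87 and -2.31 in the controls at 6 h and -0.15, -0.27 and -0.08 with the morpholinos. The readings at 24 h were -6.03, -5.52 and -5.25 in the controls and -4.30, -4.11 and -4.25 with the morpholinos. Neither pair of groups overlapped, and the rise was 3.82-fold at 6 h (log2 1.93, SE 0.18, limma adjusted p = 1.17e-05) and 2.61-fold at 24 h (log2 1.38, SE 0.18, limma adjusted p = 0.000208). Its fall with age, by 3.50 in the controls and by 4.05 with the morpholinos on the log2 scale (limma adjusted p = 7.62e-09 and 2.4e-09), ran with that of probe 1. No direction of the morpholino effect on per3 is given for the gene, since the deposited files do not say which probe reads it better; the cause of the disagreement was not tested.

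**Figure D2:**
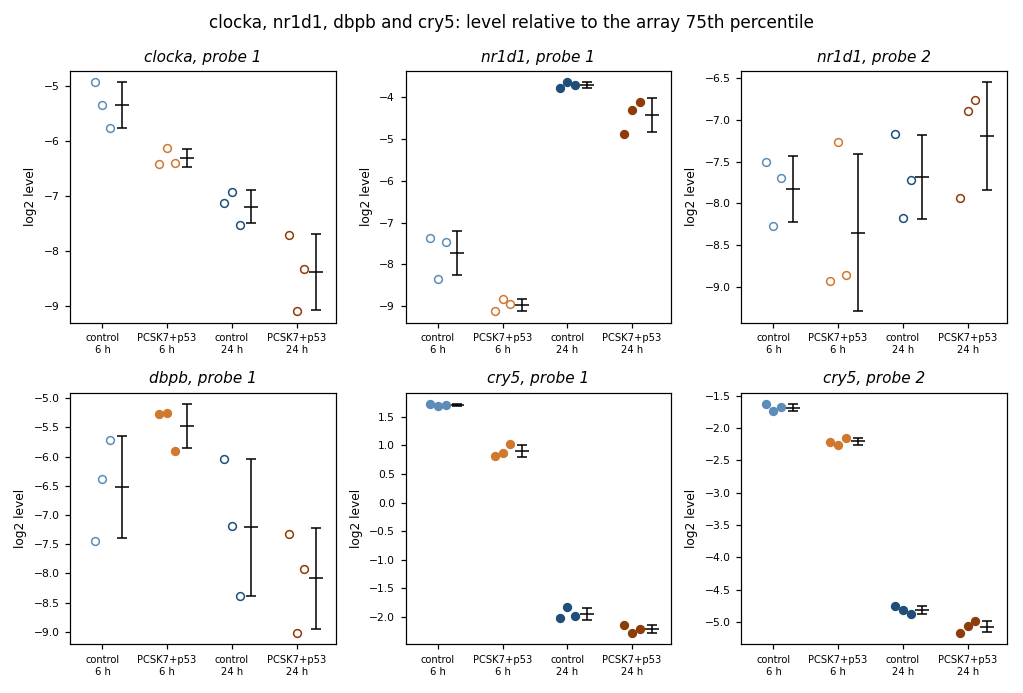
Levels of clocka, nr1d1, dbpb and cry5 on each array, as log2 relative to the array's 75th percentile (vertical axis, a separate range in each panel) in the 4 groups (horizontal axis). Points are arrays, open where the probe missed the background flag on any array of the group, and the dash with bars is the mean ± SD (n = 3); both cry5 probes fall in 4 steps, and nr1d1 probe 1 is above background only at 24 h.

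cry5, the 6-4 photolyase, was lower with the PCSK7 and p53 morpholinos at both times and by both probes. Probe 1, A_15_P103946, read 1.72, 1.69 and 1.71 in the controls at 6 h and 0.81, 0.87 and 1.02 with the morpholinos. At 24 h it read -2.02, -1.83 and -1.98 in the controls and -2.14, -2.28 and -2.21 with the morpholinos. The 4 groups did not overlap, and the gap at 24 h was the narrow one.

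The cry5 level was 1.75-fold lower at 6 h (log2 -0.81, SE 0.08, limma adjusted p = 1.29e-05) and 1.20-fold lower at 24 h (log2 -0.27, SE 0.08, limma adjusted p = 0.0159). The effect shrank by 0.54 between the times (SE 0.11, limma adjusted p = 0.00243). At 24 h the call rested on single arrays: without control replicate 2 the limma adjusted p was 0.0632, and without replicate 2 of the morpholino group it was 0.0566.

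With age, cry5 fell 12.6-fold in the controls (log2 -3.65, limma adjusted p = 6.55e-12) and 8.66-fold with the morpholinos (log2 -3.11, limma adjusted p = 2.24e-11), the largest measured falls of these genes by their probe 1. On the 3 control slides the fall lay between -3.74 and -3.52. Probe 2, A_15_P544372, read -1.63, -1.74 and -1.68 in the controls at 6 h and -2.21, -2.26 and -2.16 with the morpholinos. It read -4.75, -4.82 and -4.88 in the controls at 24 h and -5.17, -5.06 and -4.99 with the morpholinos. The cry5 probes correlated at 0.998 over the 12 arrays, the closest pair of these genes. Probe 2 gave a fall of -0.52 at 6 h (limma adjusted p = 0.000106) and of -0.25 at 24 h (limma adjusted p = 0.0122).

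nr1d1 encodes the receptor that represses the bmal genes, and it was measured at 24 h only. Probe 1, A_15_P110290, read -3.77, -3.64 and -3.70 in the controls at 24 h and -4.88, -4.31 and -4.10 with the morpholinos. At 6 h the probe was well above background on no array of either group, with readings from -9.12 to -7.37. The groups at 24 h did not overlap, and 1 array with the morpholinos, at -4.88, lay below the other two.

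At 24 h nr1d1 was 1.65-fold lower with the morpholinos (log2 -0.72, SE 0.25, limma adjusted p = 0.0401). That call was lost when any 1 of the 3 controls at 24 h was left out, when replicate 1 or 2 of the morpholino group at 24 h was, or when replicate 3 of the morpholino group at 6 h was, with limma adjusted p from 0.0525 to 0.147. It was also lost with quantile normalization (limma adjusted p = 0.242). The test at 6 h passed (log2 -1.24, limma adjusted p = 0.00192), but both groups were below background there and no fold is given. From 6 h to 24 h nr1d1 rose in the controls and with the morpholinos (limma adjusted p = 4.89e-08 and 1.8e-08). With the 6 h level set to the lowest signal well above background on each array, the rises were 5.11-fold and 4.81-fold. These sizes depend on that setting and on the processing. Over the alternatives the log2 rise ran from 0.62 to 4.20 in the controls and from 0.46 to 4.76 with the morpholinos. Probe 1 was tested only because of its level at 24 h, so these rises start from the filter and are given as a description. The second nr1d1 probe was well above background on 2 arrays, both at 24 h with the morpholinos, and was not tested.

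dbpb, a PAR bZIP factor, gave low and scattered readings. Its probe, A_15_P373660, passed the background flag throughout the morpholino group at 6 h, where it read -5.27, -5.25 and -5.91. It read -7.45, -6.39 and -5.71 in the controls at 6 h and -6.04, -7.19 and -8.39 in the controls at 24 h, with 1 array of each above background. With the morpholinos at 24 h it read -7.32, -9.02 and -7.92, with none above. Neighbouring groups in the order of levels overlapped.

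The change of dbpb with the morpholinos was 1.04 at 6 h (SE 0.64, limma adjusted p = 0.182) and -0.88 at 24 h (SE 0.64, limma adjusted p = 0.289), and neither passed. dbpb fell with age in the morpholino embryos (limma adjusted p = 0.00255). The fall was 3.15-fold with the 24 h level set to the lowest signal well above background on each array. Over the alternatives the log2 change ran from -3.34 to -0.33. The probe was tested only because of its level in the morpholino group at 6 h. This comparison thus starts from the group that admitted it and is given as a description. On the 3 control slides the change with age was 1.41, -0.80 and -2.68, so the controls gave no common direction.

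clocka encodes the partner of BMAL in the activator, and its probe, A_15_P114960, did not pass the background filter and was left out of the main test. The background flag was passed by 2 of the 3 controls at 6 h, by 1 of 3 arrays with the morpholinos at 6 h, and by none at 24 h. The readings were -4.93, -5.34 and -5.76 in the controls at 6 h and -6.41, -6.12 and -6.40 with the morpholinos, and from -9.09 to -6.93 over both groups at 24 h. Without the filter the fit gave -0.97 at 6 h (limma adjusted p = 0.0281) and -1.18 at 24 h (limma adjusted p = 0.0164), where at 24 h both groups were below background. No fold is given for clocka.

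**Figure D3:**
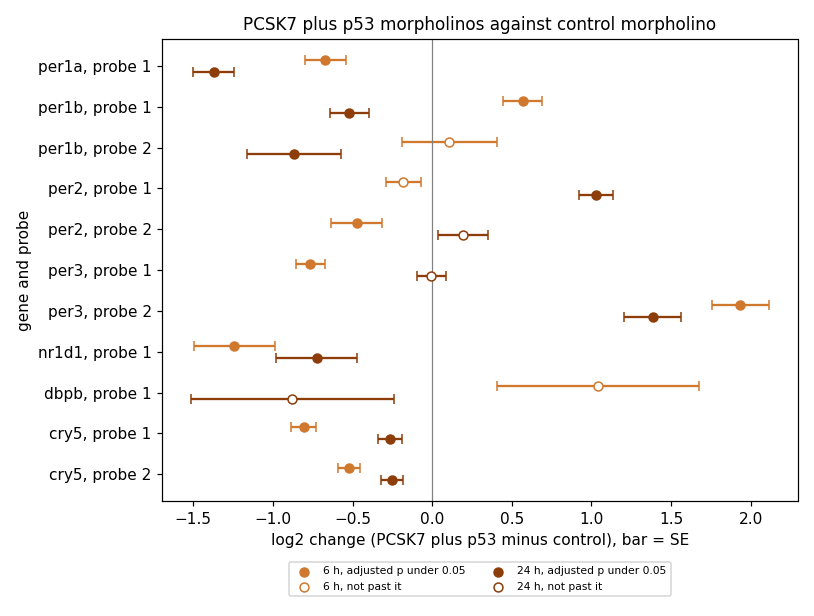
Change with the PCSK7 and p53 morpholinos against the control morpholino, in log2 (horizontal axis), for the 11 tested probes (vertical axis), at 6 h and at 24 h. Bars are the standard error of the fit, and filled points have a limma adjusted p under 0.05; the 2 per3 probes lie on opposite sides of 0 at 6 h, and per1b probe 1 lies at 0.57 at 6 h and at -0.52 at 24 h, while the nr1d1 point at 6 h compares readings below background.

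The morpholino effects at the 2 times were compared directly, through the difference of the effect at 24 h and that at 6 h. It passed for 5 of the 7 clock genes, beside 50.3% of all genes, of which 22.4% moved up and 27.9% down. The effect moved down for per1a and per1b, by -0.70 and -1.09, and up for per2, per3 and cry5, by 1.21, 0.76 and 0.54. For cry5 and per3 this meant a smaller deficit at 24 h by probe 1, for per2 a higher level and for per1a a larger deficit. The differences for nr1d1 and dbpb were 0.52 and -1.92, and neither passed (limma adjusted p = 0.265 and 0.106). Where a gene had a second tested probe, the difference passed in the same direction for per2 and cry5, and did not pass for per1b (-0.98, limma adjusted p = 0.0816) or per3 (-0.55, limma adjusted p = 0.101). For per3 the value of probe 2 had the other sign to that of probe 1.

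**Figure D4:**
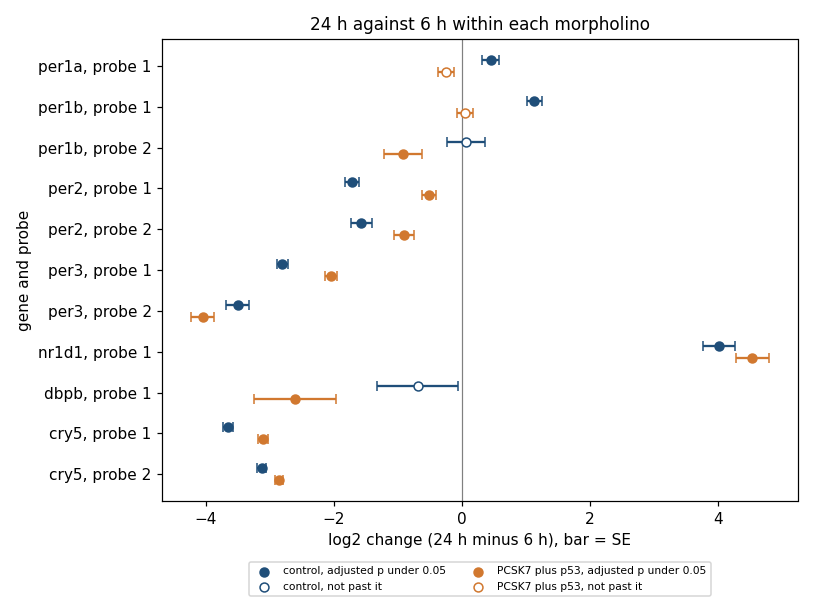
Change from 6 h to 24 h in log2 (horizontal axis) for the 11 tested probes (vertical axis), in control embryos and in embryos with the PCSK7 and p53 morpholinos. Bars are the standard error of the fit, and filled points have a limma adjusted p under 0.05; both cry5 and both per3 probes lie below -2 in both kinds of embryo, and per1b probe 1 lies at 1.13 in the controls and at 0.04 with the morpholinos, while the nr1d1 points rest on 6 h readings below background.

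With age, 6 of the 7 tested clock genes changed in the controls, beside 91.2% of all genes (48.1% higher and 43.1% lower), and 5 of 7 changed with the PCSK7 and p53 morpholinos, beside 90.9% (47.6% higher and 43.3% lower). In the controls per1a, per1b and nr1d1 rose and per2, per3 and cry5 fell. With the morpholinos nr1d1 rose and per2, per3, dbpb and cry5 fell. nr1d1 and dbpb entered the test only through the groups where they were high, so their changes with age lend these counts no support. These comparisons share no arrays with each other, and the direction was the same in both for per2, per3 and cry5. Quantile normalization moved the median of all probes in the time comparisons to -0.28 in the controls and -0.24 with the morpholinos, and no clock gene's change with age turned its direction under it.

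Of 68 further listed genes of the clock, its regulators, its light response and its outputs, 56 had a probe and 53 were tested. At 6 h, 11 were higher and 16 lower with the morpholinos, and 26 did not pass. Of the 47 measured in at least 1 group at 6 h, 11 were higher and 13 lower, since npas2, bhlhe40 and rorb compared readings below background. Their median change was -0.05, beside -0.0045 for all genes. At 24 h, 9 were higher, 14 lower and 30 did not pass, with a median of -0.05 beside -0.03. Among all genes 31.9% were higher and 31% lower at 6 h, and 21% higher and 25.8% lower at 24 h.

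**Figure D5:**
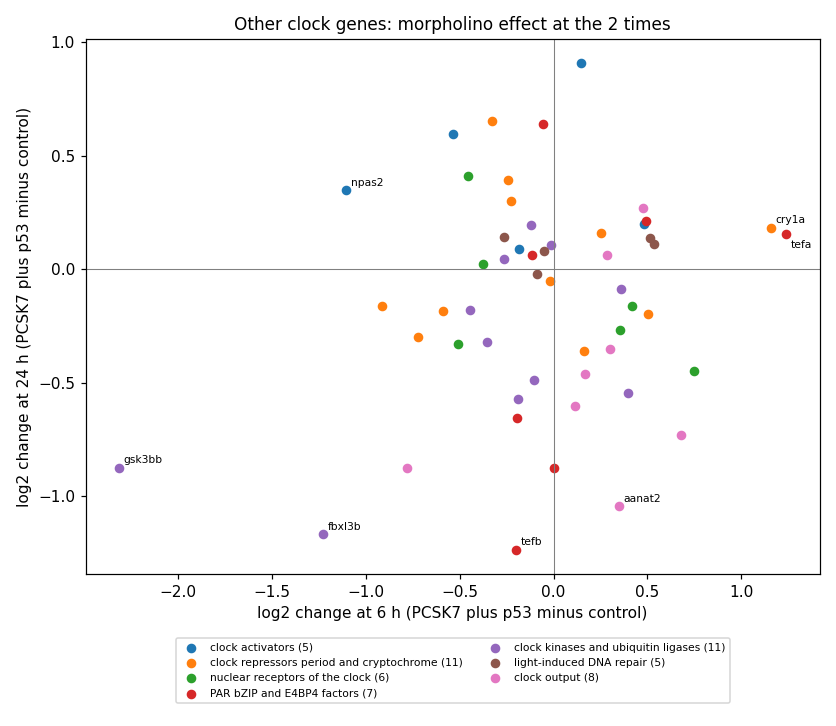
Change with the PCSK7 and p53 morpholinos against the control morpholino at 6 h (horizontal axis, log2) and at 24 h (vertical axis, log2) for the 53 tested clock genes other than the 8 described above. Points are genes, coloured by list with the number in brackets, and genes at or past 1 in either direction are named; gsk3bb lies lowest at 6 h, at -2.32, and tefb lowest at 24 h, at -1.23.

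Of the genes that encode clock activators, bmal1a gave no change. bmal1a read 2.81, 2.69 and 2.91 in the controls at 6 h and 2.54, 2.74 and 2.57 with the morpholinos, which overlapped (log2 -0.18, limma adjusted p = 0.0642). At 24 h its change was 0.09 (limma adjusted p = 0.385). bmal1b read -1.63, -1.68 and -1.62 in the controls at 6 h and -2.26, -2.16 and -2.12 with the morpholinos. Its direction differed between the times: at 24 h the controls read -2.23, -2.02 and -2.06 and the morpholino arrays -1.73, -1.43 and -1.36.

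bmal1b fell by 0.54 at 6 h (limma adjusted p = 0.000945) and rose by 0.59 at 24 h (limma adjusted p = 0.000876), a difference of 1.13 (SE 0.14, limma adjusted p = 0.000152). clockb, a second CLOCK gene, was 1.87-fold higher at 24 h (log2 0.91, limma adjusted p = 2.09e-05) by 1 of its 2 tested probes, and changed by 0.15 at 6 h (limma adjusted p = 0.127). npas2, a relative of CLOCK, changed by -1.10 at 6 h (limma adjusted p = 0.0118), but no array at 6 h was above background. Over the activator list, 1 gene was higher and 2 lower of 5 tested at 6 h, beside 31.9% and 31% of all genes. At 24 h, 2 were higher and 0 lower, beside 21% and 25.8%.

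The list of period, cryptochrome and related repressor genes holds the period genes and cry5. At 6 h it had 3 higher and 8 lower of 16 tested, beside 31.9% and 31% of all genes. At 24 h it had 5 higher and 3 lower, beside 21% and 25.8%. cry1a, a cryptochrome that light induces in zebrafish, read -1.97, -1.60 and -1.61 in the controls at 6 h and -0.49, -0.48 and -0.72 with the morpholinos. It was 2.23-fold higher at 6 h (log2 1.16, SE 0.11, limma adjusted p = 1.51e-05), and at 24 h the change was 0.18 (limma adjusted p = 0.209). Among the light-induced genes per2, cry1a and cry5 the directions at 6 h thus differed by gene. cry2, another cryptochrome gene, fell by 0.72 at 6 h (SE 0.13, limma adjusted p = 0.000818) and changed by -0.30 at 24 h (limma adjusted p = 0.0845).

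The PAR bZIP list, which holds dbpb, had 1 higher and 0 lower of 8 tested at 6 h, beside 31.9% and 31% of all genes. At 24 h it had 1 higher and 3 lower, beside 21% and 25.8%. tefa, a D-box activator, was the gene that rose at 6 h, from -0.05, 0.09 and 0.12 in the controls to 1.37, 1.36 and 1.15 with the morpholinos. It was 2.36-fold higher (log2 1.24, SE 0.08, limma adjusted p = 1.32e-06) and all 4 of its tested probes passed in that direction. Its duplicate tefb was 2.35-fold lower at 24 h (log2 -1.23, SE 0.10, limma adjusted p = 2.09e-05), where it read -2.43, -2.09 and -2.18 in the controls and -3.64, -3.36 and -3.40 with the morpholinos. At 24 h tefa changed by 0.15 (limma adjusted p = 0.141), and at 6 h tefb changed by -0.20 (limma adjusted p = 0.121).

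Kinases and ubiquitin ligases that act on clock proteins had 1 higher and 6 lower of 11 tested at 6 h, and 1 higher and 5 lower at 24 h, beside 31% and 25.8% of all genes lower at these times. gsk3bb, a gene for the kinase GSK3, read -1.92, -1.85 and -2.45 in the controls at 6 h and -4.14, -4.86 and -4.17 with the morpholinos. It was 4.98-fold lower at 6 h (log2 -2.32, SE 0.27, limma adjusted p = 4.91e-05) and 1.83-fold lower at 24 h (limma adjusted p = 0.0224). fbxl3b, related to the mammalian ligase subunit that marks cryptochromes for breakdown, was 2.35-fold lower at 6 h (limma adjusted p = 7.91e-06) and 2.24-fold lower at 24 h (limma adjusted p = 3.11e-05). Of its 2 tested probes, 1 passed in this direction at 6 h and both at 24 h.

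The nuclear receptor list, which holds nr1d1, had 0 higher and 3 lower of 7 tested at 6 h, beside 31.9% and 31% of all genes. Only 1 of those 3 genes passed the background flag throughout either group at 6 h. Of the 3 tested probes of that gene, 1 passed as lower and 1 as higher at 6 h. At 24 h the list had 0 higher and 2 lower, beside 21% and 25.8%. Light-induced DNA repair genes, with cry5 among them, had 2 higher and 3 lower of 7 at 6 h. At 24 h they had 1 in each direction, beside the same shares of all genes. With age, 6 of these 7 fell in the controls, beside 43.1% of all genes, and all 7 with the morpholinos, beside 43.3%. Clock output genes had 4 higher and 0 lower of 8 at 6 h, beside 31.9% and 31% of all genes. At 24 h they had 1 higher and 5 lower, beside 21% and 25.8%. Among those 5 was aanat2, an enzyme gene of melatonin synthesis in the pineal gland, which read -0.38, -0.34 and -0.22 in the controls at 24 h and -1.15, -1.23 and -1.70 with the morpholinos. aanat2 was 2.06-fold lower there (log2 -1.04, SE 0.16, limma adjusted p = 0.000576).

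Markers of cells and stages moved with these comparisons as well. Of 15 listed genes of the gastrula stage, 12 were higher and 1 lower with the morpholinos at 6 h, beside 31.9% and 31% of all genes. Their summed linear level relative to the array percentile was 166 to 202 in the controls and 248 to 260 with the morpholinos. At 24 h, 7 were higher and 2 lower, beside 21% and 25.8% of all genes. Of the 14 measured at 24 h, 6 were higher and 2 lower. The gastrula sums at 24 h were at most 12.7 in the controls and 13.1 to 16.9 with the morpholinos. All 12 tested genes of late segmentation were higher at 24 h than at 6 h in both kinds of embryo. Beside them stand 48.1% of all genes in the controls and 47.6% with the morpholinos. Of these, cryba1b, mylpfa and neurod1 were above background on no array at 6 h. They entered the test only through the groups at 24 h, so their rise lends this count no support. With the morpholinos 7 of those 12 were higher and 3 lower at 6 h, where 9 of the 12 were measured, with 7 higher and 1 lower, and mylpfa and cryba1b compared readings below background. At 24 h, 1 was higher and 5 lower, and the shares of all genes at each time are those given for the gastrula list. Their sums were 1.33 to 1.42 in the controls and 1.87 to 2.06 with the morpholinos at 6 h, and 506 to 616 and 434 to 487 at 24 h.

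Another list held genes of the pineal gland and of photoreceptors, the tissues in which aanat2 is known. It had 3 higher and 2 lower of 11 tested at 6 h, beside 31.9% and 31% of all genes. At 24 h, 0 were higher and 5 lower, with aanat2 among these, beside 21% and 25.8%. Of the 10 measured at 24 h, 4 were lower. At 6 h crx, gnat1 and rcvrna of this list were above background on no array. The summed level of all 11 genes was 420 to 495 in the controls and 142 to 209 with the morpholinos at 6 h. At 24 h it was 208 to 244 and 64.3 to 109.5. Nearly all of this sum is 1 probe of exorh, a pineal opsin gene. Only 1 of its 2 tested probes passed at 6 h, and the 2 passed in opposite directions from 6 h to 24 h in the controls. Without exorh the sum of the other 10 genes was 1.34 to 1.60 in the controls and 1.26 to 1.35 with the morpholinos at 6 h, which overlap, and 2.12 to 2.26 and 1.48 to 1.56 at 24 h. The median change of the list was 0.07 at 6 h and -0.60 at 24 h. Targets of p53 had 2 higher and 8 lower of 10 at 6 h and 2 higher and 1 lower at 24 h, beside the same shares of all genes. Their sums were 67.8 to 71.7 in the controls and 77.0 to 83.0 with the morpholinos at 6 h, and 225 to 270 and 220 to 231 at 24 h. Their median change was -0.77 at 6 h, opposite in sign to the shift of the sum. The part of these stage, cell and p53 differences in the values of the clock genes was not tested.

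The genes whose levels ran most like each clock gene over the 12 arrays were sought among 7528 genes with a standard deviation of at least 0.5, and these correlations follow the 4 groups and carry no test. For per1a they were erbb2 (r = 0.97) and nae1 (0.95), and for per1b probe 1 dync1i1b (0.97) and znf750 (0.96). per2 probe 1 ran with chordc1a and zgc:174310 (both 0.99), per3 probe 1 with thap12b (0.999) and rpp38 (0.998), and cry5 probe 1 with daxx (0.999) and zgc:114123 (0.998). Likeness was lower for per1b probe 2, with cela1.5 at 0.83 and st6gal1 at 0.81. The second probes of per2, per3 and cry5 each had other nearest genes than the first: dnajc5gb and unk (both 0.98), tbck (0.995) and serp1 (0.994), and snx27b and snrnp35 (both 0.999). No gene was among the nearest 2 of both probes of a clock gene.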

How the data were processed

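The authors deposited 1 scanner file per array, holding each spot's intensity, from which Agilent Feature Extraction had subtracted background, as stated per the file headers (builds 10.7.1.1 and 10.7.3.1, and version 10.7.1 per the submitters' processing notes). They also deposited a table of normalized intensity on a linear scale, used as an alternative, with no method stated per the labels, whose columns hold nearly the same sorted values. That table holds probe 1 of every clock gene described except cry5.

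Here spots that the scanner software flagged as uneven or as outliers were dropped, and the other spots of a probe were averaged. The log2 of the processed signal was taken minus the array's 75th percentile. That percentile was taken over 43527 of the 43603 non-control probes, those with a value on all arrays. Then limma 3.58.1 in R 4.3.3 fitted 1 mean per group over 12 arrays (residual df 8). The fit was tested on simulated data with independent noise and changes in 1 group. It recovered 75% of 100 probes changed by 1 on the log2 scale and 94% of 100 changed by 2, with 9 false calls. The simulation held no slides or sessions and far fewer changed probes than these data, so it does not test their part. Of the probes, 36686 passed the background filter, and 76 lacked a value on some array and were left out. No probe was saturated among those of the clock genes. RefSeq identifiers named 26854 probes for 14016 genes through a RefSeq table of assembly GRCz12tu, 16749 probes stayed unnamed, and sequences and coordinates are not used here.

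The clock genes and all lists were chosen with earlier results of these data known. Text names every clock gene with all its probes, other listed clock genes with an adjusted p under 0.05 and a change of at least 2-fold with the morpholinos, and bmal1a, bmal1b, clockb, cry1a and cry2. The 2 nearest genes by Pearson correlation are given for clock probes above background on at least 9 arrays. Same-numbered replicates did not deviate together (correlations from -0.042 to 0.016), and the main fit did not pair them. In the controls, same-numbered arrays of the 2 times shared a slide. The other replicate numbers tie no arrays together. Alternatives were quantile normalization, normexp with an offset of 50 on the median signal, which stood in for the mean signal, the authors' table, other background filters, slide and replicate blocks, and leaving out each array. Counts past the threshold were compared with those of all genes.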

Additional observations from a re-analysis of the deposited data

Results flagged for a closer look

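For 5 clock genes the effect of the PCSK7 and p53 morpholinos at 24 h differed from that at 6 h in a direct test of the difference, by limma over all 12 arrays with Benjamini-Hochberg adjustment. The difference was 1.21 on the log2 scale for per2 (limma adjusted p = 0.000186), where probe 1 was higher at 24 h and did not pass at 6 h. The second per2 probe differed the same way by 0.67 (limma adjusted p = 0.0327), but it was lower at 6 h and did not pass at 24 h. It was -1.09 for per1b (limma adjusted p = 0.000723), where by probe 1 all 3 arrays were above the controls at 6 h and all 3 below them at 24 h. The second per1b probe overlapped the controls at 6 h, and its difference of -0.98 did not pass (limma adjusted p = 0.0816). per3 gave 0.76 (limma adjusted p = 0.00104) by probe 1, while its second probe did not pass and had the other sign. cry5 gave 0.54 (limma adjusted p = 0.00243), a smaller deficit at 24 h than at 6 h, read by both probes. per1a gave -0.70 (limma adjusted p = 0.00986), a larger deficit at 24 h. Over the whole array 50.3% of genes passed this test, and slide, scan session and morpholino cannot be told apart at either time.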

How the results depend on the processing

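Of the changes of single clock genes under the alternatives, 661 of 685 kept their side of the threshold, 14 no longer passed and 10 newly passed. The sign turned in 7, none of which passed in either setting: the morpholino effect on per3 at 24 h, the change of per1b with age in the morpholino embryos and the difference of effects on nr1d1. Leaving out an array of a group outside a comparison cannot move the change itself, so the share kept is no measure of how firm the calls are. Sizes moved as well: the morpholino effect on per2 at 24 h lay between 0.49 and 1.23 on the log2 scale. The number of clock genes that changed at 24 h with the morpholinos was 3 of 6 in the authors' deposited table, which lacks cry5, beside 5796 of 12119 genes. It was 3 to 5 of 7 when 1 array was left out, beside 5026 to 6131 of 12849 genes. It was 3 without control replicate 2 at 24 h and 3 without replicate 2 of the morpholino group at 24 h. With age in the morpholino embryos, 3 of 5 clock genes changed where probes had to be above background on all 12 arrays, beside 9166 of 10098 genes. That filter left nr1d1 and dbpb untested. Where all tested probes of a gene had to agree, 3 of 7 clock genes changed at 6 h, beside 5793 of 12849 genes. Under the same rule 3 of 7 passed for the difference of the effects, beside 4595 of 12849 genes. With the replicate block, 4 clock genes changed at 24 h: nr1d1 no longer passed (limma adjusted p = 0.0563), and no other call of a clock gene was lost. The replicate numbers pair nothing in the labels, though in the controls same-numbered arrays shared a slide. The replicate block changed the count of all genes at 24 h to 5587 from 6014. nr1d1 at 24 h was also lost in the authors' table (0.384), and at 6 h, where both groups were below background, with normexp (0.275). The rise of per1a with age in the controls did not pass in the authors' table (limma adjusted p = 0.062), and its change with age in the morpholino embryos passed in 6 alternatives, with limma adjusted p from 0.00103 to 0.0438. dbpb fell with age in the controls with quantile normalization (0.0079) and in the authors' table (0.00627). Without control replicate 3 at 24 h the difference of effects on dbpb passed (0.0339), and without control replicate 2 at 6 h that on nr1d1 (0.0298). The slide block within control arrays and the count over measured genes only were chosen after the data were seen. The cause of these shifts was not tested. Signal near background limits clocka, dbpb and nr1d1 at 6 h, and 3 arrays per group limit the precision of the rest.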
